A study of Homo sapiens with 4 samples.

Results

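Ribosome biogenesis and RNA polymerase I (Pol I) genes, 47 in all, were followed in SY5Y cells 12 h after SGSS05-NS or DMSO. The genes were taken from a fixed list of Pol I components and rRNA processing factors and matched by gene identifier to symbols. The rule holds no threshold on measured values, but the list was drawn up with earlier results of these data known. All 47 were among the 16468 genes with enough counts to be tested, of 57820 genes in the count tables. SY5Y is an established human neuroblastoma cell line, labelled MYCN wild type. SGSS05-NS is named by the series as an inhibitor of the histone methyltransferase SETD8, whose gene is KMT5A. The labels write SGSS05-NS and the study's text SGSS05-NS3, taken here as the same compound. The study also lists other methyltransferases that the compound inhibits at micromolar levels. The 2 DMSO libraries carried the solvent alone, and the 2 SGSS05-NS libraries came from cells given the compound at 3 μM according to the labels. Both the labelled dose and a lower one are named for this line in the study's text. The study's methods describe the pairs as independent biological replicates. All 4 libraries therefore come from a single cell line at a single time.

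Ribosomes are built in the nucleolus, where Pol I transcribes the long precursor of most ribosomal RNA. Small nucleolar RNA-protein particles (snoRNPs) then modify the precursor, box C/D particles by adding methyl groups and box H/ACA particles by making pseudouridine, and large sets of processing factors cut it into the small and large subunits. Growing tumour cells make ribosomes at a high rate, many genes of this machinery are known targets of MYC family factors, and disturbed ribosome assembly is known to release ribosomal proteins that bind MDM2.

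Fragments on annotated genes numbered between 21463105 and 25350204 per library. Fragments on no annotated exon of the counted strand made up 12.3% to 12.4% of all fragments with DMSO and 15.3% to 16.1% with SGSS05-NS. These include fragments on exons of the opposite strand only. The line was checked against its defining markers. Of 10 noradrenergic neuroblastoma markers, TH was at or near 0 in every library, and the other 9 were detected, with a summed level of 3548 and 3823 CPM (counts scaled to the library) with DMSO and 2242 and 2015 CPM with SGSS05-NS. Epithelial and blood markers summed to between 2.43 and 4.63 CPM, and 9 of the 10 were under 1 CPM in every library. The 10 markers of the mesenchymal state summed to between 153 and 215 CPM, with PRRX1 and DCN at 0. KMT5A, whose product the compound is meant to inhibit, was at 54.6 and 56.8 CPM with DMSO and 82.8 and 82.9 CPM with SGSS05-NS, and its transcript level does not show whether the enzyme was inhibited. CPM values are shares of the library after scaling, so a level that falls in bulk RNA cannot be told apart from a rise in the rest of the RNA or from fewer cells with that RNA.

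The members moved little as a set, and they moved in both directions. In the quasi-likelihood test of edgeR, with p adjusted after Benjamini and Hochberg over every gene tested, 3 of 47 members (6.38%) passed an adjusted p of 0.001, against 14.5% of all genes tested. NOP58 and NOP2 rose (4.26%, against 6.37% of all genes) and DDX10 fell (2.13%, against 8.14%). At an adjusted p under 0.05 the members called were 19 (40.4%), 8 higher and 11 lower, against 46.3% of all genes tested. Among all genes, 22.6% were higher and 23.7% lower at that threshold. Among the 9782 genes between the lowest and the highest member in average level, 17.5% passed 0.001, 6.94% higher and 10.5% lower, and 49.0% passed 0.05, 21.7% higher and 27.3% lower. Without DMSO replicate 1 the calls at 0.001 were 1 member higher and 1 lower, without DMSO replicate 2 they were 1 and 2, without SGSS05-NS replicate 1 they were 4 and 2, and without SGSS05-NS replicate 2 they were 2 and 2. Of the 19 members called at 0.05, 10 kept that call whichever library was left out, namely DDX10, NCL, NHP2, NOP2, NOP56, NOP58, RRN3, TAF1B, TAF1C and TAF1D. Without DMSO replicate 1 the call at 0.05 was lost for EBNA1BP2, MRTO4, NOP14, POLR1D, PWP2, UBTF and WDR12, without DMSO replicate 2 for DKC1, NOP14, POLR1D, UBTF and WDR12, without SGSS05-NS replicate 1 for MRTO4, UBTF and WDR12, and without SGSS05-NS replicate 2 for NOP14, POLR1A, POLR1D and WDR12.

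The median log2 fold change of the members was -0.13, with a middle range from -0.22 to 0.15, where the median of all genes tested was 0.01. The size of the change, regardless of direction, had a median of 0.20 log2 units in the members, 0.37 in all genes tested and 0.28 in genes of similar level. A change of more than 0.5 log2 units was seen in 3 members (6.38%), in 38.6% of all genes tested and in 25.6% of genes of similar level. The 95% interval lay inside ±0.5 log2 units for 29 of the 47 and inside ±1 for 46. These counts depend on the size of the change as well as on the precision. The median standard error of the members was 0.098 log2 units. Levels of the members did not overlap between the groups for 38 genes, with 13 members higher (27.7%, against 37.8% of all genes tested) and 25 lower (53.2%, against 36.9%). Among genes of similar level these shares were 34.9% and 41.8%. The summed level of all 47 was 7360 and 7378 CPM with DMSO and 6837 and 7122 CPM with SGSS05-NS.

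**Figure D1:**
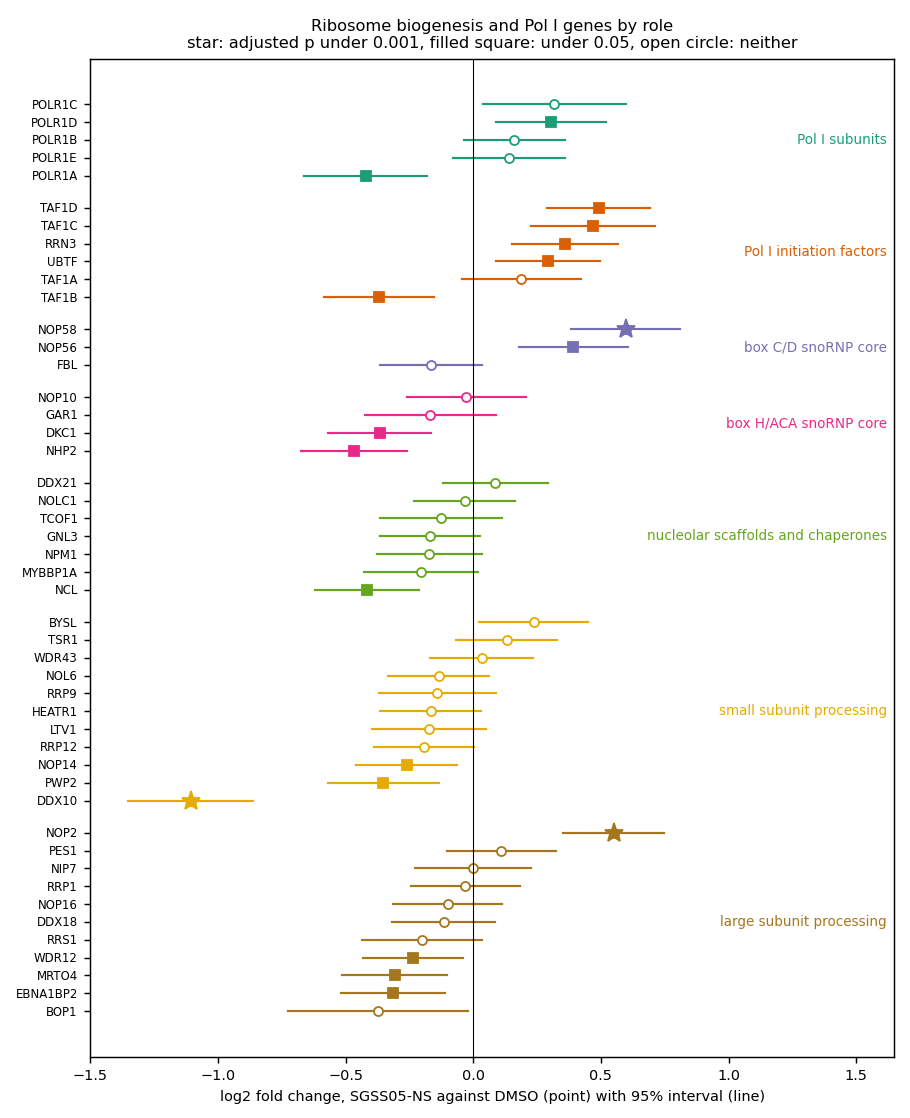
Log2 fold change of each of the 47 members with SGSS05-NS against DMSO (x axis), grouped by role, with the 95% interval of the fit as a line. Most intervals lie inside ±0.5, NOP58 and NOP2 stand at 0.60 and 0.55, and DDX10 stands at -1.11.

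Many members share a short promoter sequence, and it is shown here before the values because it is the best known binding sequence of MYC family factors, the E-box CACGTG. The motif reads the same on both strands. RefSeq start sites on GRCh38.p14 gave windows from 250 bases before to 50 bases after the start for 39 of the 47 members, and 17 of these (43.6%) held CACGTG, against 12.3% of tested genes with a window and 8.77% of all 27305 genes with one. NOP58, POLR1E, NOLC1, TCOF1, RRP12, BOP1, RRS1 and DDX18 had no window. The sites below were chosen to show a member that rose, members of each role with the motif and a pair with lower levels, with 12 bases on either side where the window allows, 5′ to 3′ on the strand of the gene, and capitals marking the motif:
NOP2 (chr12:6568242-6568268, minus strand): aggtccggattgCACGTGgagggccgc
FBL (chr19:39846356-39846385, minus strand): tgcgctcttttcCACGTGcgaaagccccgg
NOP10 (chr15:34343130-34343159, minus strand): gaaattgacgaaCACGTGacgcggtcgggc
GNL3 (chr3:52686026-52686055, plus strand): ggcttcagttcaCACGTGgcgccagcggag
DDX21 (chr10:68956604-68956633, plus strand): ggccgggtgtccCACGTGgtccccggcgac
BYSL (chr6:41921515-41921544, plus strand): ttcttcagtcccCACGTGcgatccttcccg
PWP2 (chr21:44107388-44107417, plus strand): tgagctgcggcaCACGTGcgacggccgtga
NOP14 (chr4:2963374-2963403, minus strand): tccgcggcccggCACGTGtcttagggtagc
PES1 (chr22:30591880-30591909, minus strand): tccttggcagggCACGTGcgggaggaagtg

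The changes of members with and without this motif covered overlapping ranges. The 17 with CACGTG had a median log2 fold change of -0.17, from -0.35 in PWP2 to 0.55 in NOP2, and 5 were called at 0.05. The 22 with a window and no match had a median of -0.02, and 13 of them were called at 0.05, with a range from -1.11 to 0.49. At that threshold 46.3% of all genes tested were called. Over all tested genes with a window, 14.5% of those with the motif and 14.9% of those without passed 0.001. No Pol I subunit or initiation factor with a window held the motif. A match of letters in a window is a description and does not show that a factor bound there.

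MYC, the growth factor-responsive transcription factor gene of this family, was at 169 and 174 CPM with DMSO and at 93.1 and 67.6 CPM with SGSS05-NS. MYC fell by 1.09 on the log2 scale (SE 0.131, adjusted p = 4.6e-05). MYCN, the family member that defines a class of neuroblastoma when amplified, was already low, at 6.22 and 6.76 CPM against 1.98 and 2.81 CPM, and fell by 1.43 (adjusted p = 0.00023). MXD1, whose product opposes MYC at E-boxes, rose by 2.20 (SE 0.195, adjusted p = 5.2e-06). MYC and MYCN were lower and MXD1 higher in each treated library than in any DMSO library. The list of 12 MYC network genes had calls in both directions, with 5 higher and 4 lower at 0.05 and a median log2 fold change of 0.10. Over all genes tested 22.6% were higher and 23.7% lower at 0.05. MYCL, the third MYC family gene, had a log2 fold change of 0.67 (adjusted p = 0.0083), and among genes whose products oppose MYC, MXD3 and MGA had -0.66 (adjusted p = 0.0084) and -0.28 (adjusted p = 0.026), and MNT and MXD4 had 0.72 (adjusted p = 0.0014) and 0.40 (adjusted p = 0.0074).

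Pol I subunits showed 4 positive changes and 1 negative. POLR1A, the largest catalytic subunit, was at 115 and 124 CPM with DMSO and at 98.4 and 80.3 CPM with SGSS05-NS. Both treated libraries were below both DMSO libraries, with a log2 fold change of -0.42 (SE 0.110, adjusted p = 0.0081). Without SGSS05-NS replicate 2 it was -0.28 with an adjusted p of 0.052, and without SGSS05-NS replicate 1 it was -0.58 with an adjusted p of 0.00026. POLR1B, the second largest subunit, was at 162 and 152 CPM against 175 in both treated libraries, a log2 fold change of 0.16 (adjusted p = 0.17) that did not pass either threshold. The groups of POLR1B did not overlap. POLR1D, an assembly subunit that Pol I shares with Pol III, rose from 78.1 and 76.3 CPM to 88.6 and 102 CPM (log2 fold change 0.30, adjusted p = 0.025). POLR1C, its partner in both enzymes, was at 30.4 and 23.4 CPM with DMSO and at 33.0 and 34.1 CPM with SGSS05-NS (log2 fold change 0.32, adjusted p = 0.061). Without DMSO replicate 2 the log2 fold change of POLR1C was 0.12, and without DMSO replicate 1 it was 0.51. Its DMSO libraries differed by more than its treated libraries did. POLR1E, of the subcomplex that helps the enzyme start and elongate, had overlapping groups and a log2 fold change of 0.14. The catalytic subunits POLR1A and POLR1B thus had values of opposite sign, and the summed level of the 5 subunits was 454 and 439 CPM with DMSO and 464 and 469 CPM with SGSS05-NS.

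Of the 6 initiation factors, 4 were called higher and 1 lower at 0.05, where 46.3% of all genes tested and 49.0% of genes of similar level were called, and none passed 0.001. UBTF, which binds and opens the ribosomal DNA, was at 188 and 190 CPM with DMSO and at 242 and 220 CPM with SGSS05-NS. RRN3, the factor that makes Pol I competent to start, was at 110 and 111 CPM against 134 and 149 CPM. For both genes each treated library was above each DMSO library, with log2 fold changes of 0.29 for UBTF (SE 0.0943, adjusted p = 0.023) and 0.36 for RRN3 (SE 0.0956, adjusted p = 0.0091). UBTF lost its call at 0.05 in 3 of the 4 fits that left out a library. RRN3 has 3 named pseudogenes, which held up to 524 fragments in a library, and reads shared between near-identical copies were not counted, so its level is uncertain. TAF1A, TAF1B, TAF1C and TAF1D encode the subunits of the SL1 complex that join TBP at the Pol I promoter. TAF1D was at 81.3 and 76.6 CPM with DMSO and at 108 and 114 CPM with SGSS05-NS, a log2 fold change of 0.49 (SE 0.0926, adjusted p = 0.0012), just outside the threshold of 0.001. TAF1C was at 22.4 and 24.9 CPM against 31.5 and 33.9 CPM, a log2 fold change of 0.47 (adjusted p = 0.0049). TAF1D and TAF1C were higher in both treated libraries than in both DMSO libraries. TAF1B moved the other way, from 51.3 and 53.4 CPM to 38.6 and 42.4 CPM, a log2 fold change of -0.37 (SE 0.0989, adjusted p = 0.0096). TAF1A was at 33.6 and 30.6 CPM against 34.9 and 38.2 CPM and did not pass either threshold (log2 fold change 0.19). The complex thus held subunits called in both directions. The sum of all 6 factors was 486 CPM in both DMSO libraries and 589 and 597 CPM with SGSS05-NS.

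Of the 3 box C/D core proteins among the members, the scaffold pair rose, NOP58 past 0.001 and NOP56 past 0.05. The enzyme did not pass either threshold. NOP58 (chromosome 2 of GRCh37 from 203130459 to 203168384, plus strand), a scaffold protein of the particle, was at 117 and 121 CPM with DMSO and at 169 and 192 CPM with SGSS05-NS. Both treated libraries were well above both DMSO libraries, with a log2 fold change of 0.60 (SE 0.0979, 95% interval 0.38 to 0.81, adjusted p = 0.00045). NOP56, its scaffold partner, was at 141 and 139 CPM against 171 and 195 CPM, a log2 fold change of 0.39 (SE 0.0978, adjusted p = 0.0064). FBL, the methyltransferase fibrillarin, was at 137 CPM in both DMSO libraries and at 117 and 127 CPM in the treated ones. FBL had lower values in both treated libraries without passing a threshold (log2 fold change -0.17, adjusted p = 0.16). SNU13, a further core protein of the particle, is not a member and was listed with the other small subunit factors. It was at 104 and 103 CPM with DMSO and at 100 and 112 CPM with SGSS05-NS (log2 fold change 0.05, adjusted p = 0.73).

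The box H/ACA core proteins had negative values in all 4 cases, with 2 called lower at 0.05. At that threshold 23.7% of all genes tested and 27.3% of genes of similar level were lower. NHP2, a small RNA-binding subunit, was at 163 and 149 CPM with DMSO and at 110 and 116 CPM with SGSS05-NS (log2 fold change -0.47, SE 0.0948, adjusted p = 0.0019). DKC1, the pseudouridine synthase dyskerin, was at 101 and 108 CPM against 82.2 and 79.5 CPM (log2 fold change -0.37, SE 0.0924, adjusted p = 0.0068). Both genes were lower in each treated library. GAR1 had a log2 fold change of -0.17 and NOP10 one of -0.03, and neither passed a threshold, with overlapping groups for NOP10. The summed levels of the members moved in opposite directions in the pair of particles. For H/ACA they went from 368 and 359 CPM to 284 and 303 CPM. For C/D, where the sum leaves out SNU13, they went from 395 and 397 CPM to 458 and 514 CPM. The difference between the particles was not tested. All 4 box H/ACA core proteins also belong to the telomerase particle.

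**Figure D2:**
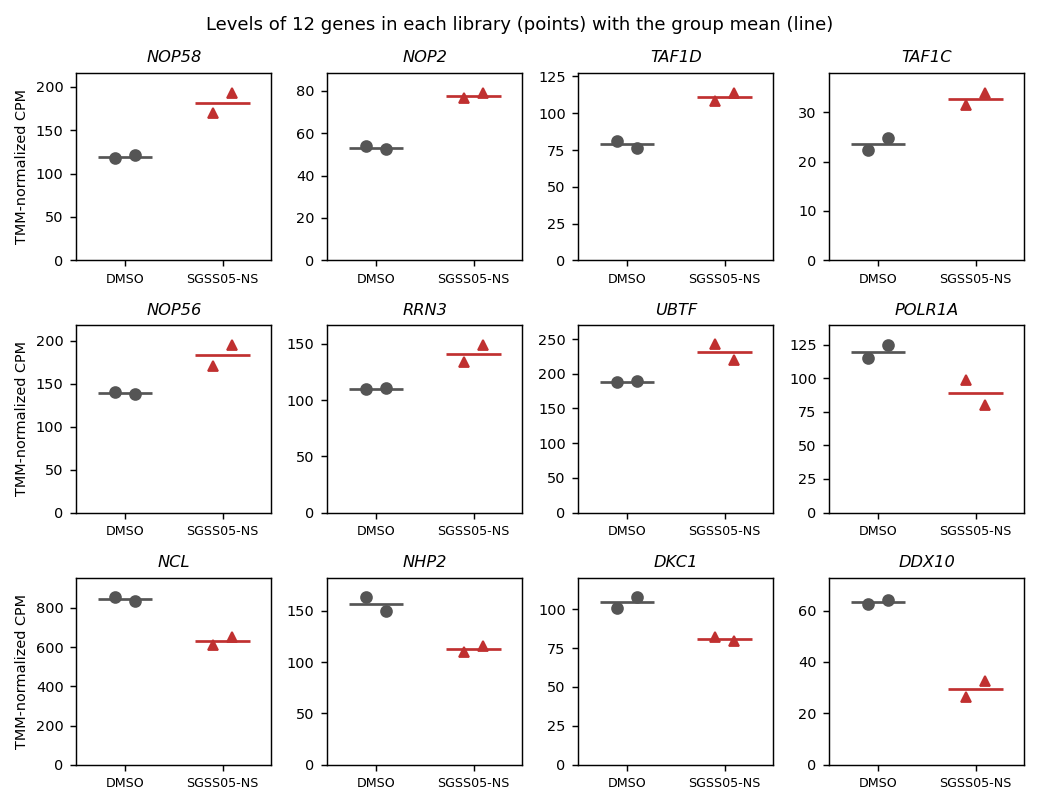
Level of 12 members in each library in TMM-normalized CPM (y axes start at 0), with DMSO as circles, SGSS05-NS as triangles and the group mean as a line. NOP58, NOP2, TAF1D, TAF1C, NOP56, RRN3 and UBTF are higher and POLR1A, NCL, NHP2, DKC1 and DDX10 lower in both treated libraries, with NOP58 between 169 and 192 CPM against 117 and 121 CPM.

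The nucleolar scaffolds and chaperones held the most abundant members. Per exon length, NPM1 led all 47 with 333 ± 8.59 TPM (transcripts scaled for length and library; SD, n = 2) in DMSO, ahead of NHP2 with 236 ± 13.8 TPM and NCL with 212 ± 3.22 TPM. The same genes held the top places when the length of the canonical transcript was used. BOP1 and DDX10 were lowest per exon length, at 6.14 ± 0.632 and 7.85 ± 0.183 TPM. The low end depended on the length used. With canonical transcripts DDX10 had a DMSO mean of 48.3 TPM and TAF1C was lowest at 15.1 TPM. BOP1 had no value, since the annotation marked no canonical transcript for its identifier. NCL, nucleolin, was at 855 and 833 CPM with DMSO and at 613 and 651 CPM with SGSS05-NS. Its treated libraries lay far below its DMSO libraries, with a log2 fold change of -0.42 (SE 0.0936, adjusted p = 0.0034). NPM1, nucleophosmin, was at 1265 and 1214 CPM against 1073 and 1127 CPM, and did not pass either threshold (log2 fold change -0.17, adjusted p = 0.15). NPM1 has 49 named pseudogenes that together held up to 782 fragments in a library, few beside its own 23812 to 31745. GNL3 (nucleostemin, a GTP-binding nucleolar protein) and MYBBP1A (a nucleolar MYB-binding protein) had log2 fold changes of -0.17 and -0.20 with groups that did not overlap. TCOF1 (treacle) and NOLC1 (which escorts snoRNPs), a pair of related nucleolar phosphoproteins, had overlapping groups at -0.13 and -0.03. DDX21, an RNA helicase of the nucleolus, had the only positive value of the 7, from 501 and 536 CPM to 533 and 568 CPM (log2 fold change 0.09, adjusted p = 0.48). Its groups overlapped.

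Factors of the small subunit path had a median log2 fold change of -0.17, and 3 of 11 were called lower at 0.05, with none called higher. At that threshold 23.7% of all genes tested and 27.3% of genes of similar level were lower, and 22.6% and 21.7% higher. DDX10 (chromosome 11 of GRCh37 from 108535785 to 108811726, plus strand), a helicase needed for early cleavage of the precursor, was at 62.5 and 64.3 CPM with DMSO and at 26.4 and 32.4 CPM with SGSS05-NS. Both treated libraries lay far below both DMSO libraries, at 0.46 times the DMSO level in the fit. The log2 fold change was -1.11 (SE 0.113, 95% interval -1.35 to -0.86, adjusted p = 1.46e-05). The gene spans 276 kb and is the longest member. PWP2, of the UTP-B complex on the early precursor, was at 72.4 and 63.1 CPM against 53.9 and 52.3 CPM (log2 fold change -0.35, adjusted p = 0.013). NOP14, a core protein of the same early particle, was at 75.5 and 77.6 CPM against 64.2 and 63.5 CPM (log2 fold change -0.26, adjusted p = 0.033). PWP2 and NOP14 were lower in both treated libraries than in either DMSO library. Positive values were seen for BYSL (bystin, a late assembly factor), at 38.4 and 39.9 CPM against 44.6 and 47.7 CPM, and for TSR1 (a late GTPase-like factor), at 173 and 184 CPM against 195 and 196 CPM. These gave log2 fold changes of 0.24 (adjusted p = 0.066) and 0.13 (adjusted p = 0.26), and WDR43, of the UTP-A complex, was at 0.03 with overlapping groups. The other members of the path, RRP9 (a U3 snoRNP protein), RRP12 (an export factor), NOL6, HEATR1 (both of early complexes) and LTV1 (a late factor), lay between -0.19 and -0.14 with lower values in both treated libraries, and none passed a threshold.

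Factors of the large subunit path had a median log2 fold change of -0.12, with 1 of 11 called higher and 3 lower at 0.05. Among genes of similar level 21.7% were higher and 27.3% lower, and among all genes tested 22.6% and 23.7%. NOP2 (chromosome 12 of GRCh37 from 6666029 to 6677857, minus strand), a methyltransferase that modifies a cytosine of the large ribosomal RNA, was at 53.7 and 52.4 CPM with DMSO and at 76.6 and 78.9 CPM with SGSS05-NS. The groups lay far apart, with a log2 fold change of 0.55 (SE 0.0914, 95% interval 0.35 to 0.75, adjusted p = 0.000495). This call was the least secure of those at 0.001, since the adjusted p was 0.00105 without DMSO replicate 1 and 0.0027 without DMSO replicate 2 (log2 fold changes 0.56 and 0.51). Over all alternatives the adjusted p of NOP2 ranged from 3.0e-06 to 0.0027. EBNA1BP2, of an early large subunit particle, was at 142 and 132 CPM against 107 and 113 CPM, a log2 fold change of -0.31 (adjusted p = 0.016). MRTO4, a ribosome stalk assembly factor, was at 111 and 110 CPM against 85.0 and 93.8 CPM, also with -0.31 (adjusted p = 0.018). Both were lower in each treated library than in each DMSO library. The PeBoW complex, which processes the spacer next to the large subunit RNA, consists of PES1, BOP1 and WDR12, and its members differed in sign. WDR12 was at 94.1 and 92.8 CPM against 80.2 and 78.4 CPM (log2 fold change -0.24, adjusted p = 0.047), PES1 had overlapping groups at 0.11, and BOP1, with only 7.03 to 10.8 CPM in any library, was at -0.37 (adjusted p = 0.078). NOP16, RRP1, RRS1, NIP7 and DDX18, all factors of nucleolar large subunit particles, lay between -0.20 and -0.00 and did not pass a threshold.

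Across genes, long genes were lower with SGSS05-NS than short ones, and DDX10 stood at the long end of the members. Over 12567 protein-coding genes tested, Spearman's rho between gene length and log2 fold change was -0.42, given as a description across genes that share the same 4 libraries. Over the 47 members rho was -0.10, and -0.04 without DDX10. With the span of the canonical transcript in place of the annotated gene length, rho was -0.21 over the members and -0.16 without DDX10. It was -0.42 over protein-coding genes, so the value for the members depended on how length was taken. BOP1 kept its annotated gene length here. Of the 11 members longer than 50 kb, 1 (9.09%) was called lower at 0.001, against 18.4% of protein-coding genes of that length. Of the 36 shorter members none was called lower at 0.001, and 2.18% of such protein-coding genes were. The shorter members had a median log2 fold change of -0.11, where short protein-coding genes had one of 0.14, and the longer members had -0.19, where long ones had -0.24. Of the 11 members over 50 kb, 6 (POLR1C, POLR1D, TAF1D, RRP12, WDR12 and EBNA1BP2) reach that length only through other annotated transcripts, and the canonical transcripts of POLR1D and TAF1D span 1.56 and 5.93 kb. The 5 members with a canonical span over 50 kb had a median log2 fold change of -0.37, where such protein-coding genes had -0.29, and the 42 others had -0.11, where such genes had 0.13. The part of gene length in the change of DDX10, TAF1B (91.0 kb) or POLR1A (85.9 kb) was not tested.

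Of the 47 members, 9 (19.1%) carry snoRNA genes inside them, against 2.69% of protein-coding genes tested. They are TAF1D with 8, NOP56, NOP58, NCL and GNL3 with 3 each, DKC1, WDR43 and TSR1 with 2 each, and POLR1C, which holds a scaRNA gene. The 9 hosts had a median log2 fold change of 0.13, with 6 above 0, and the 38 other members had a median of -0.14, with 11 above 0. All 338 protein-coding genes tested that hold a snoRNA had a median of -0.10. NOP58 and NOP56 rose while NCL and DKC1 fell, so hosts were found on both sides. Introns of these genes give snoRNA, and the counts here are of all exonic fragments on the gene's strand, which cannot separate spliced mRNA from other products of the locus.

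Further genes of the ribosome machinery are given from lists written from general knowledge. Beside them, 22.6% of all genes tested were higher and 23.7% lower at an adjusted p under 0.05. Of 9 other Pol I subunits and ribosomal DNA factors, 4 were higher and 1 lower at 0.05, with a median log2 fold change of 0.27. SIRT7, a deacetylase bound to Pol I, rose from 17.5 and 14.6 CPM to 31.5 and 35.5 CPM (log2 fold change 1.06, adjusted p = 4.87e-05). Of 43 other small subunit factors tested, 5 were higher and 6 lower at 0.05 around a median of 0.00. The only one past 0.001 was UTP20, a very large scaffold protein, which fell from 120 and 128 CPM to 57.7 and 59.2 CPM (log2 fold change -1.08, adjusted p = 4.37e-06). Of 52 other large subunit factors tested, 13 were higher and 9 lower at 0.05 around a median of 0.05, with 4 in each direction at 0.001. MDN1, the giant AAA ATPase that strips assembly factors, fell by 0.84 on the log2 scale (adjusted p = 2.24e-05), and AFG2A, another AAA ATPase of the late path, fell by 1.07 (adjusted p = 1.42e-05). SBDS, which helps release a late factor from the large subunit, rose by 0.77 (adjusted p = 5.13e-05). UTP20, MDN1 and AFG2A span 107, 177 and 396 kb, and SBDS spans 8.01 kb. Of 17 genes for rRNA trimming (exonucleases, other subunits of the exosome complex and cofactors), 2 were higher and 3 lower at 0.05. Of 78 cytosolic ribosomal protein genes tested 1 was higher and 2 lower, with a median of 0.04.

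The 6 genes of the list on nucleolar stress and MDM2 had a median log2 fold change of 0.54. All 6 had positive values, and 3 rose at 0.001, with none lower, where 6.37% of all genes tested were higher. The list was written with earlier results of these data known, so the shared direction of its genes may follow from that choice. Nucleolar stress was not tested. MDM2, a ubiquitin ligase that free ribosomal proteins can bind, rose by 1.26 (SE 0.112, adjusted p = 5.4e-06), and CDKN1A, which encodes the cell cycle inhibitor p21, rose by 4.68 (SE 0.174, adjusted p = 5.2e-09). USP36, a nucleolar deubiquitinase, rose by 0.67 (adjusted p = 0.00042). KMT5A, which is not on this list, rose by 0.57 (adjusted p = 0.00037). Without DMSO replicate 1, USP36 and KMT5A had adjusted p of 0.0023 and 0.0017 at log2 fold changes of 0.52 and 0.54.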

How the data were processed

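RNA of 2 DMSO and 2 SGSS05-NS libraries of SY5Y cells was analysed, grouped by their labels. Trimming was done by the authors with Trimmomatic 0.30 and alignment to hg19 with STAR 2.4.2a, whose raw fragment counts per gene they deposited. Each library has 57820 gene rows and 4 summary rows, and the latter entered neither library sizes nor tests. The labels name a TruSeq RNA kit and the study's methods a stranded kit for total RNA depleted of rRNA. The reverse-strand column was used, since the forward column held only 4.64% to 5.05% of stranded fragments. Fragments mapping to several places are not counted, so genes with near-identical copies are uncertain.

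Counts were fitted in edgeR 4.0.16 (R 4.3.3): filterByExpr, TMM scaling, quasi-likelihood test of SGSS05-NS against DMSO, Benjamini-Hochberg adjustment over 16468 genes, threshold 0.001, with 0.05 as a second threshold. The standard error is the log2 fold change over the square root of F. CPM values are TMM-scaled, and TPM values use the union of exons. Symbols and positions came from GENCODE 44 on GRCh37 for 55538 identifiers, while 2282 without a match held 4.52% of counts. Promoter windows came from RefSeq on GRCh38.p14.

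The 47 members, their roles and the other lists were chosen with earlier results of these data known. Every member is described. Of each other list, with the cell markers given as sums, up to 3 genes past 0.001 with the smallest p were named, and MYC, MYCN, MDM2, CDKN1A and KMT5A always. The rule covers 1 more gene, whose values are left out here. Of the other ribosome lists, 3 genes (DDX52, AATF, NOL12) had no counted match. Replicates differed beyond counting noise (chi-square per degree of freedom 8.76 with DMSO and 11.8 with SGSS05-NS). Alternatives were the likelihood ratio test, DESeq2 1.42.0, limma voom 3.58.1, DESeq2 size factors, library size only, no filter, at least 10 counts in every library, a replicate block, counts without regard to strand, an adjusted p under 0.05 and each library left out. Outside the naming rule, MYCL, MXD3, MXD4, MGA, MNT and SNU13 were named after their values were seen. The block at 0.05, and TPM and lengths from canonical transcripts, were chosen after seeing the data. The code was tested on simulated counts.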

Additional observations from a re-analysis of the deposited data

Results flagged for a closer look

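Fragments on the strand opposite to a member were counted in a column that the comparisons did not use. At HEATR1 they were 298 and 304 with DMSO and 514 and 496 with SGSS05-NS, a ratio of 1.82 after scaling to the library, and LGALS8 overlaps HEATR1 on that strand. At POLR1C they were 47 and 57 with DMSO and 85 in both treated libraries, a ratio of 1.77, and YIPF3, XPO5 and LRRC73 overlap POLR1C on that strand. The opposite strand held 3.72% of stranded fragments at HEATR1 with DMSO and 7.17% with SGSS05-NS, and 7.36% and 9.97% at POLR1C. These differences were not tested.

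Fragments on no annotated exon of the counted strand, which no comparison used, include those on exons of the opposite strand only. They made up 16.1% of all fragments in SGSS05-NS replicate 1 and 15.3% in SGSS05-NS replicate 2. The DMSO libraries had 12.4% and 12.3%. Their part in the changes of the members was not tested.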

How the results depend on the processing

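NOP58 and DDX10 were called under every alternative, though NOP58 came very close to the threshold with one library left out. NOP2 was called under all but the removal of either DMSO library. At an adjusted p under 0.05, all genes gave 3728 higher and 3903 lower and members 8 and 11. The likelihood ratio test gave 2022 and 2267 for all genes and 4 and 3 for members. With no filter all genes gave 2034 and 2570, with 4 members lower. DESeq2 called 3 members lower, and counts without regard to strand called 2 lower with a member median of -0.17. Scaling by library size alone put that median at -0.091, where the median of all genes was 0.04. With the replicate block, all genes gave 1759 higher and members 3 higher and 1 lower, and at 0.05 the block gave 3972 and 4092 for all genes and 9 and 11 for members. The block called 22.9% of all genes at 0.001, against 14.5% without it. Libraries of the same number showed little shared deviation (correlation of deviations 0.0526), which alone does not settle whether they were paired. Leaving out one library at a time gave 1 to 4 members higher and 1 to 2 lower at 0.001. A lone library is then assumed to vary like the other group. The cause of these shifts was not tested.

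Of 611 values of single members under alternatives, 580 kept direction and side of the threshold, 18 newly passed it, 2 lost it and 11 changed sign, all of these uncalled and near 0. NOP10 was at 0.0014 by library size alone and, with one library left out, from -0.18 to 0.10. NIP7 was at 0.028 by library size alone, 0.011 with at least 10 counts in every library, and from -0.11 to 0.093 with one library left out (0.058 without DMSO replicate 2). WDR43 was at -0.0048 without regard to strand, and from -0.012 to 0.065 with one library left out (-0.0075 without SGSS05-NS replicate 2). In the same way RRP1 ranged from -0.11 to 0.024 and TCOF1 from -0.28 to 0.011. With 2 libraries a group and a median standard error of 0.098 log2 units per member, smaller shifts cannot be resolved. POLR1D moved from place 42 to 6 in TPM order with canonical transcript lengths.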

Other observations

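The polymerases that make other RNA classes were set beside Pol I. Of 21 Pol III subunits and factors, 4 were higher and 6 lower at an adjusted p under 0.05, with a median log2 fold change of -0.17. Of all genes tested 22.6% were higher and 23.7% lower at that threshold. POLR3B, the second largest Pol III subunit, fell from 30.4 and 30.0 CPM to 14.2 and 11.9 CPM (log2 fold change -1.21, SE 0.125, adjusted p = 1.56e-05), and the gene spans 152 kb. GTF3C1, of the factor that binds transfer RNA genes, had a log2 fold change of -0.50 and an adjusted p of 0.000998, which rose to between 0.0011 and 0.0026 without any one of 3 libraries (DMSO replicate 1, DMSO replicate 2 or SGSS05-NS replicate 2), by library size alone and with at least 10 counts in every library. Of 5 subunits shared by the 3 polymerases, POLR2F alone passed 0.001, with a log2 fold change of -0.64 (adjusted p = 0.00082), and it lost the call without DMSO replicate 1 (adjusted p = 0.0016) and without SGSS05-NS replicate 1 (adjusted p = 0.0015), by library size alone (adjusted p = 0.0018) and with at least 10 counts in every library (adjusted p = 0.0011). Of 7 Pol II subunits, POLR2A, which encodes the largest one, was at 86.7 and 201 CPM with DMSO and at 440 and 378 CPM with SGSS05-NS. Its DMSO libraries stood far apart, and its log2 fold change of 1.51 (SE 0.266, adjusted p = 0.00075) had an adjusted p of 0.031 in DESeq2, 0.0017 by library size alone and 0.0011 without regard to strand.

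MYC targets outside ribosome assembly were called in both directions. Of 21 tested, 5 were higher and 6 lower at 0.05, where 22.6% of all genes tested were higher and 23.7% lower. HSPD1 and HSPE1, the mitochondrial chaperonin pair, rose by 0.76 and 0.63 log2 units (adjusted p = 7.41e-05 and 0.00036), and RUVBL1, an AAA ATPase of chromatin and snoRNP assembly, fell by 0.69 (adjusted p = 0.00011). RPL26 was the only cytosolic ribosomal protein gene past 0.001. It fell from 73.5 and 85.0 CPM to 40.9 and 41.8 CPM, a log2 fold change of -0.94 (SE 0.102, adjusted p = 2.33e-05), and reads shared with its processed copies were not counted.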
